A study of Mus musculus with 24 samples.

Results

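Endothelins are small secreted peptides that act on cells through G protein-coupled receptors. A precursor is cut by furin-type proteases and then by an endothelin-converting enzyme, and the mature peptide signals through EDNRA or EDNRB to phospholipase C, calcium and the ERK cascade. Endothelin 1 is best known as a vasoconstrictor made by blood vessel lining cells, but epithelia also make it. The genes described here are the 3 ligands Edn1, Edn2 and Edn3, the 2 receptors Ednra and Ednrb, and the 2 converting enzymes Ece1 and Ece2. They were found by matching the RefSeq accession printed for each array probe to the gene, which gave 7 of the 20145 named genes on the array and 8 of its 55681 probes, 2 for Ednrb and 1 for each of the others. The study itself had picked out Edn1 and Ednra from these same arrays, so their values here are not independent evidence. The paper also reports qPCR of both genes after knockdown and overexpression, which is not part of the data used here.

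The samples were 24 1-colour arrays of HC11 cells, a mouse mammary epithelial line that came from mid-pregnant Balb/c tissue through COMMA-D cells and that makes milk proteins when given lactogenic hormones. The study altered mPINC (Pinc), a long noncoding RNA, to ask how it affects that differentiation. The 3 siRNA groups were siNEG (a negative control siRNA), siPINC1.0/1.6 (siRNAs to 2 splice forms, mPINC1.0 and mPINC1.6) and siPINC (siRNAs to all splice forms, DCR2 included), each transfected at 10 nM, with 2 arrays a group without hormones (−LH) and 3 with hydrocortisone, insulin and prolactin (+LH). In the paper's culture method, cells are moved to medium with stripped horse serum and no EGF before hydrocortisone and prolactin are added. Insulin is in both media. The medium of the −LH arrays is not stated, so serum, EGF and time in culture cannot be told apart from the hormones. The 3 lentiviral groups, all +LH with 3 arrays each, carried LeGO-GFP (control), LeGO-1.0/1.6 (both full-length forms) or LeGO-DCR (a deletion mutant without the conserved terminal exons). Transduced cells were expanded and frozen before use, and repeated transductions are not described. A difference between transduced stocks therefore cannot be told apart from the effect of the vector. All 9 groups are 1 cell line in culture, no selection of single clones is described, and in such bulk RNA a change in the share of cells that express a gene and a change of its level within cells cannot be told apart.

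Values are log2 of the quantile-normalized signal, and differences are on that scale, first group minus second, with their SE. Called means an adjusted p under 0.05 in limma, fitted over all probes. The scanner software marked between 24013 and 35380 probes an array as well above background. The Pinc probe read 7.41 to 7.48 in siNEG −LH against 6.27 to 6.39 in siPINC1.0/1.6 −LH and 6.16 to 6.39 in siPINC −LH. With hormones it was dim, at 4.72 to 4.96 in siNEG, 4.83 to 5.25 in siPINC1.0/1.6 (both well above background on 2 of 3 arrays) and 4.15 to 4.76 in siPINC (1 of 3). The siPINC1.0/1.6 arrays were thus not lower than siNEG there (difference 0.19 ± 0.187, limma adjusted p = 0.713), and the siPINC difference, −0.50 ± 0.187, did not pass (limma adjusted p = 0.428). The probe therefore does not check the knockdown on the arrays labelled +LH. In LeGO-1.0/1.6 it read 13.34 to 13.50 against 5.92 to 6.38 in LeGO-GFP. LeGO-DCR read 5.93 to 6.17, and since the probe's place relative to the deleted exons is not given, this checks nothing about that vector. Of 7 luminal epithelial markers, 6 were well above background on every array and Krt19 on 1. Krt5 and Krt14, basal keratins, were also bright on every array. Of 8 endothelial markers, Tek and Tie1 were well above background on 0 arrays, Cdh5 on 1 and Cldn5 on 2, while Vwf was above it on 18 and Kdr, Flt1 and Pecam1 on all 24.

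Edn1, on chromosome 13 (42301476 to 42307990 in GRCm38.p6), and Ednra, on chromosome 8 (77663029 to 77724452), had the widest spans of group means among the 7 genes, 5.33 and 2.93. Both rose with hormones, so the 250 bases before each annotated start are shown, as given by RefSeq in GRCm38.p6 and written 5′ to 3′ on the gene's own strand.
Edn1, chr13:42301226-42301475, plus strand: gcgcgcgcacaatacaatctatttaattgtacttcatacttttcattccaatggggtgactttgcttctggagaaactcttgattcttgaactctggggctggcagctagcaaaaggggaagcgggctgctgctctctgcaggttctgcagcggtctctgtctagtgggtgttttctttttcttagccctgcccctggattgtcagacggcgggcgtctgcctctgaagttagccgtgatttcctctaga
Ednra, chr8:77724453-77724702, minus strand: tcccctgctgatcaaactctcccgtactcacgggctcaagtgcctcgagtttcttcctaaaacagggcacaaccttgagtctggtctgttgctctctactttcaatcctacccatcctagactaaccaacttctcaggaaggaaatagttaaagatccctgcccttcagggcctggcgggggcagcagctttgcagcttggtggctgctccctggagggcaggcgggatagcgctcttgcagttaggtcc

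No letters are in capitals because none of the 4 motifs searched on both strands was found in either window. TTCNNNGAA, bound by STAT factors, which act downstream of prolactin, is held by 7.02% of the 32851 promoter windows of the same length. The palindromic response element of the glucocorticoid receptor is held by 0.387%, and TGANTCA, bound by AP-1, by 6.75%. AGATAA, bound by GATA factors, is held by 9.99%. With no match, no overlap between motifs arose. The windows of Edn2, Edn3, Ednrb and Ece2 and the 4 windows of Ece1 held none of them either. Absence from these windows says nothing about other regulatory DNA.

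Without hormones and without knockdown, Edn1 was barely measurable. The probe is printed 10 times on each array, and its mean was 3.89 and 3.89 in siNEG −LH, where 4 of 10 and 1 of 10 spots were well above background. The lowest signal of any probe well above background on both arrays was 4.07. The siNEG −LH level of Edn1 is therefore not exact. Folds against it are given as at least values, taken against that lowest signal and for this background treatment only. They are nominal, since a probe that is not well above background can read higher than that signal.

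Lactogenic hormones went with a large rise of the Edn1 signal in control cells. With hormones, siNEG cells read 8.32, 8.31 and 8.37, far above both arrays without them. The difference was 4.45 ± 0.081 on the log2 scale (SE; limma, adjusted p = 1.25e-10), at least 19.19-fold on this scale. It depended on how background was treated, as it was 2.28 with the normexp correction and 3.3 in the authors' deposited log2 values, both called. The first siNEG +LH array lay on the slide of the −LH arrays, and within that slide the difference was 4.44.

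Ednra, the receptor with high affinity for endothelin 1, rose in the same comparison. It read 6.71 and 6.36 in siNEG −LH and 9.51, 9.38 and 9.35 in siNEG +LH. The groups did not overlap and differed by 2.88 ± 0.129 (7.36-fold, limma adjusted p = 3.88e-08), and by 2.98 within the shared slide. With normexp the difference was 2.23, also called.

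Ece1, a converting enzyme that completes the peptide, went the other way. It read 9.76 and 9.58 in siNEG −LH and 8.37, 8.43 and 8.29 in siNEG +LH. It fell by 1.31 ± 0.076 (2.47-fold lower, limma adjusted p = 2.98e-07), with −1.30 within the shared slide. Of the 7 genes, these 3 were called in this comparison, 2 higher and 1 lower. Of all probes 27.1% were called, 13.5% higher and 13.6% lower (limma). The median difference over the 7 genes was −0.52, against 0.01 over all probes. That median is the value of Edn3, which was well above background on 0 of 24 arrays, so it does not describe the family.

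**Figure D1:**
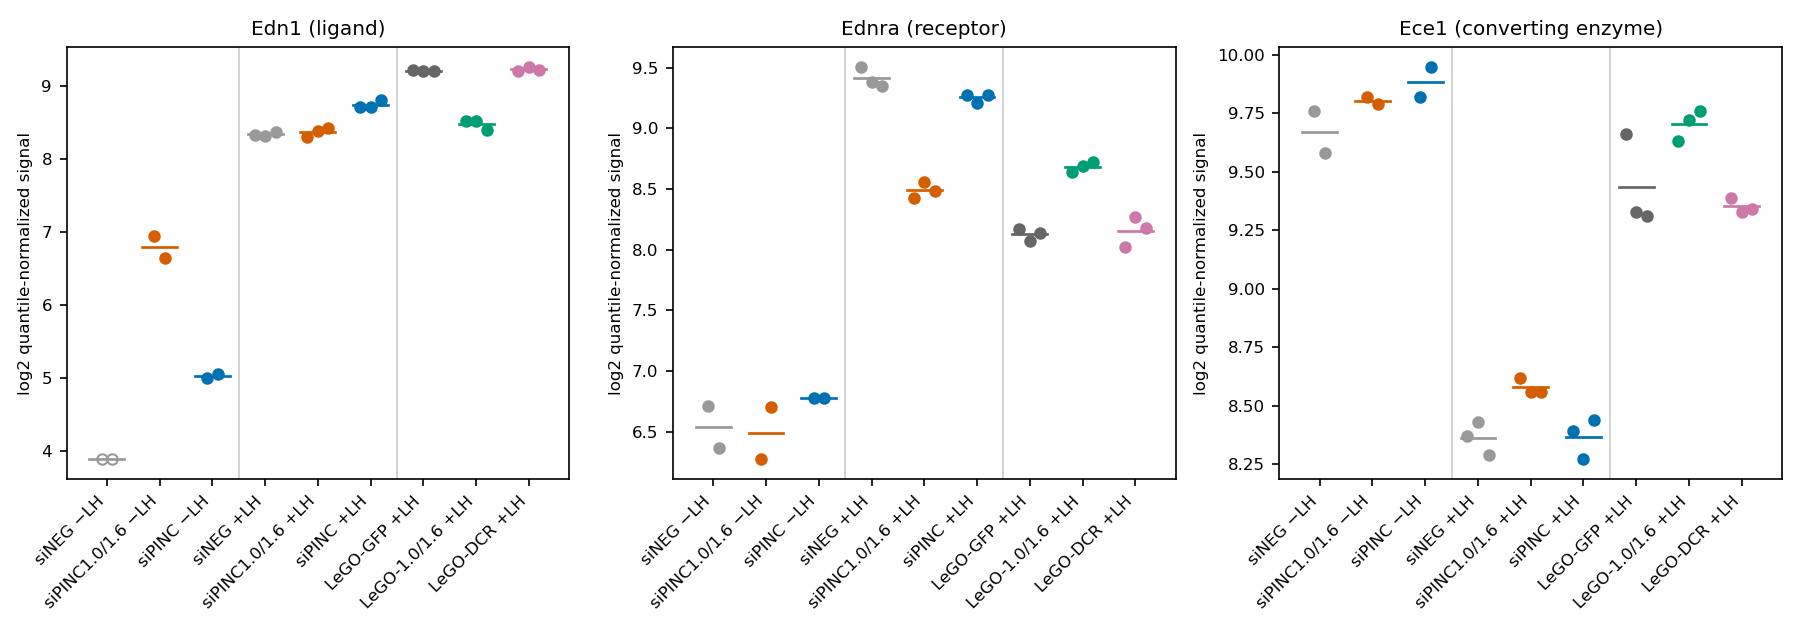
Log2 quantile-normalized signal of Edn1, Ednra and Ece1 on each of the 24 arrays (vertical axes, each with its own range) by group (horizontal axes). Each point is 1 array, a horizontal line is the group mean, and open points mark arrays where the probe was not well above background: Edn1 in siNEG −LH at 3.89, against 8.31 to 8.37 in siNEG +LH.

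The 3 genes moved in the same directions with hormones in both knockdown groups. Edn1 rose by 1.57 ± 0.081 in siPINC1.0/1.6 (limma adjusted p = 1.04e-07) and by 3.71 ± 0.081 in siPINC (limma adjusted p = 5.69e-10), the latter by 2.33 under normexp and 3.06 in the deposited log2 values. Ednra rose by 2.00 ± 0.129 (limma adjusted p = 5.42e-07) and 2.48 ± 0.129 (limma adjusted p = 1.28e-07), and Ece1 changed by −1.23 ± 0.076 and −1.52 ± 0.076 (limma adjusted p = 4.32e-07 and 9.96e-08). In each of the 2 knockdown groups 4 of the 7 genes were called, where 29.8% of all probes were called in siPINC1.0/1.6 and 28% in siPINC. In these groups all −LH arrays lay on 1 slide and all +LH arrays on another, so within them the slide and the hormones cannot be told apart. The differences of Edn1, Ednra and Ece1 stayed called under each of the 11 alternatives. Among these was a slide term, which rests on the groups that span slides.

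In undifferentiated cells, knockdown of mPINC1.0 and mPINC1.6 went with a higher Edn1 signal. The 2 siPINC1.0/1.6 −LH arrays read 6.94 and 6.65, with every spot used well above background. Both were above the siNEG arrays, and the difference was 2.91 ± 0.116 (limma adjusted p = 0.0188), at least 6.61-fold. The size depended on how background was treated: it was 1.12 with the normexp correction and 1.89 in the authors' deposited log2 values. With 2 arrays a group the call was also narrow, since leaving out either siNEG array, either siPINC array or the second siPINC1.0/1.6 array gave adjusted p from 0.055 to 0.101. Without the first siPINC1.0/1.6 array it was 0.0405.

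siPINC, which also targets DCR2, gave values in between. Edn1 read 5.0 and 5.06 in siPINC −LH, above both siNEG arrays and below both siPINC1.0/1.6 arrays. The difference from siNEG was 1.14 ± 0.116 and did not pass (limma adjusted p = 0.164). No probe of the array passed in that comparison: 0% were called, and 5391 of 55681 had an unadjusted p under 0.05, Edn1 the only one of the 7 genes by limma and by the methods' t-test alike. Between siPINC1.0/1.6 and siPINC the difference was 1.77 ± 0.116 (limma adjusted p = 0.0654), in a comparison where 0.018% of probes and 0 of the 7 genes were called, and Edn1 was again the only one with an unadjusted p under 0.05.

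Edn1 was the only one of the 7 genes called for siPINC1.0/1.6 against siNEG without hormones, against 2.96% of all probes. Without hormones, the Ednra signal was 6.27 and 6.70 for siPINC1.0/1.6, and both siPINC arrays gave 6.78. The siNEG range, 6.36 to 6.71, overlapped the first pair and lay below the second, and neither difference passed (−0.05 ± 0.200 and 0.24 ± 0.200, limma adjusted p = 1 and 0.749). Ece1 read 9.82 and 9.79 and then 9.82 and 9.95 in the same groups, and its differences from siNEG, 0.14 ± 0.091 and 0.22 ± 0.091, did not pass either (limma adjusted p = 0.583 and 0.58).

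With hormones, siPINC1.0/1.6 cells had an Edn1 signal close to the control and a lower Ednra signal. Edn1 read 8.30, 8.38 and 8.42, overlapping siNEG +LH (difference 0.03 ± 0.052, limma adjusted p = 0.879). Ednra read 8.43, 8.56 and 8.48, below all 3 siNEG +LH arrays. It fell by 0.92 ± 0.063 (1.90-fold lower, limma adjusted p = 7.53e-04), and by 0.87 within the slide that holds most of these arrays, where the Pinc probe was not lower than in siNEG.

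Ednra was the only one of the 7 genes called for siPINC1.0/1.6 against siNEG with hormones, where 3.84% of all probes were called. It remained called without any 1 of the 9 arrays (limma adjusted p from 0.00272 to 0.00539) and under each of the 11 other alternatives. Ece1 read 8.62, 8.56 and 8.56, above the siNEG +LH arrays, but the difference of 0.22 ± 0.062 did not pass (limma adjusted p = 0.136).

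In siPINC cells with hormones it was Edn1 that was called. It read 8.71, 8.71 and 8.80, above all 3 siNEG +LH arrays, and the difference was 0.41 ± 0.052 (1.33-fold, limma adjusted p = 0.0284), with 0.40 within the slide. Ednra read 9.28, 9.21 and 9.28, just below the siNEG arrays, and its difference of −0.16 ± 0.063 did not pass (limma adjusted p = 0.454). Edn1 was the 1 gene of 7 called, against 0.681% of all probes. The Edn1 call was lost without any 1 of the 9 arrays (limma adjusted p from 0.0503 to 0.116), although the difference stayed between 0.38 and 0.42.

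Set directly against siPINC with hormones, siPINC1.0/1.6 was lower for both genes. Ednra differed by −0.77 ± 0.063 (limma adjusted p = 0.00673) and Edn1 by −0.38 ± 0.052 (limma adjusted p = 0.0301). These 2 of 7 genes were called where 0.914% of all probes were. The Edn1 call was lost without any 1 array (limma adjusted p from 0.0523 to 0.111), and the Ednra call was kept (0.0178 to 0.036).

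The hormone response itself was also compared between siRNAs. For Edn1 the rise with hormones was smaller by 2.88 ± 0.114 on the log2 scale in siPINC1.0/1.6 than in siNEG (limma adjusted p = 3.24e-06), and by 0.74 ± 0.114 in siPINC (limma adjusted p = 0.0285). For Ednra it was smaller by 0.88 ± 0.182 in siPINC1.0/1.6 (limma adjusted p = 0.0278). The siPINC term for Ednra, −0.40 ± 0.182, did not pass (limma adjusted p = 0.693), and neither term passed for Ece1. Called were 2 of 7 genes for siPINC1.0/1.6, against 3.19% of all probes, and 1 of 7 for siPINC, against 0.503%.

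The Edn1 terms rest on the siNEG −LH level near background. Under normexp the siPINC1.0/1.6 term was −1.10 and the siPINC term was 0.04 (limma adjusted p = 0.98). The siPINC term was also lost without any siNEG +LH or siPINC +LH array, the second siNEG −LH or siPINC −LH array or the second siPINC1.0/1.6 +LH array (limma adjusted p up to 0.0735). The Ednra term was lost without the second siNEG −LH array, the second siPINC1.0/1.6 −LH array, the first or second siNEG +LH array or replicate 1 or 3 of siPINC1.0/1.6 +LH (limma adjusted p up to 0.0943).

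**Figure D2:**
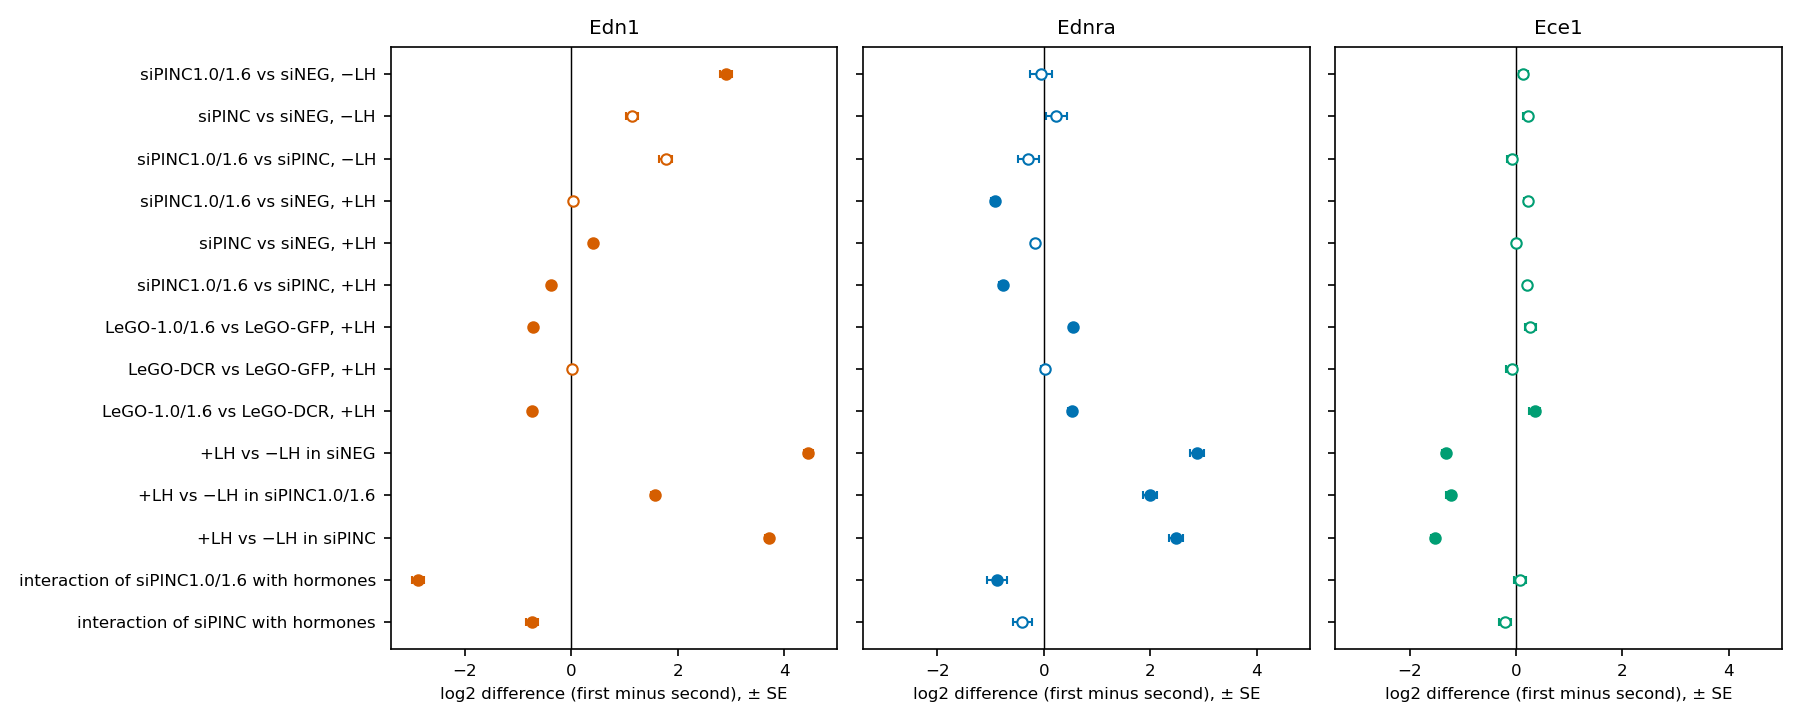
Fitted log2 differences (horizontal axes, first group minus second, ± SE) of Edn1, Ednra and Ece1 in the 14 comparisons (vertical axis). Filled points passed an adjusted p of 0.05 (limma): Edn1 and Ednra lie far to the right for the hormones (4.45 and 2.88 in siNEG) and on opposite sides of 0 for LeGO-1.0/1.6 against LeGO-GFP (−0.73 and 0.56).

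Overexpression of full-length mPINC with hormones went with less ligand and more receptor signal. Edn1 read 9.22, 9.20 and 9.20 in LeGO-GFP and 8.51, 8.51 and 8.40 in LeGO-1.0/1.6. The groups did not overlap, and Edn1 fell by 0.73 ± 0.050 (1.66-fold lower, limma adjusted p = 2.55e-05). LeGO-DCR read 9.20, 9.26 and 9.21, on the LeGO-GFP values (difference 0.01 ± 0.050, adjusted p = 1).

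Ednra read 8.17, 8.07 and 8.14 in LeGO-GFP, 8.64, 8.69 and 8.72 in LeGO-1.0/1.6 and 8.02, 8.27 and 8.18 in LeGO-DCR. All LeGO-1.0/1.6 arrays lay above the other 6. The receptor rose by 0.56 ± 0.074 against LeGO-GFP (1.47-fold, limma adjusted p = 8.63e-04), while LeGO-DCR differed from LeGO-GFP by 0.03 ± 0.074 (limma adjusted p = 1). Against LeGO-DCR, LeGO-1.0/1.6 differed by −0.75 ± 0.050 for Edn1 (limma adjusted p = 2.37e-05) and 0.53 ± 0.074 for Ednra (limma adjusted p = 0.00116). Within the slide that held all but 1 of these arrays the differences from LeGO-GFP were −0.73 and 0.58. Leaving out any 1 of the 9 arrays kept all 4 of these calls.

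Ece1 read 9.66, 9.33 and 9.31 in LeGO-GFP, 9.63, 9.72 and 9.76 in LeGO-1.0/1.6 and 9.39, 9.33 and 9.34 in LeGO-DCR. The first LeGO-GFP array, which lay on another slide, read as high as LeGO-1.0/1.6. With it the difference was 0.27 ± 0.098 (limma adjusted p = 0.0838), and without it 0.38 (limma adjusted p = 0.00214). Against LeGO-DCR it was 0.35 ± 0.098 (limma adjusted p = 0.032), a call lost without any of 5 of the 9 arrays, LeGO-1.0/1.6 replicate 2 or 3 or any LeGO-DCR array (limma adjusted p up to 0.0967).

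For LeGO-1.0/1.6, 3 of the 7 genes were called against LeGO-GFP (1 higher, 2 lower), where 30.3% of all probes were called, 14.5% higher and 15.8% lower. Against LeGO-DCR 3 of 7 were called (29.7% of all probes), and for LeGO-DCR against LeGO-GFP 0 of 7 (0.0736% of all probes), with Ednrb alone at an unadjusted p under 0.05 by limma and 0 genes by the methods' t-test. The count alone says nothing particular of these genes, as the shares over all probes were high too.

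Put in order, the Edn1 group means ran from LeGO-DCR (9.22 ± 0.033, SD) and LeGO-GFP (9.21 ± 0.012), which did not differ beyond their spread, through siPINC +LH (8.74 ± 0.051) and LeGO-1.0/1.6 (8.47 ± 0.066) to siPINC1.0/1.6 +LH (8.36 ± 0.063) and siNEG +LH (8.33 ± 0.028), which overlapped. Below them came siPINC1.0/1.6 −LH (6.80 ± 0.208), siPINC −LH (5.03 ± 0.040) and siNEG −LH at the limit of detection. Ednra ran from siNEG +LH (9.42 ± 0.086) and siPINC +LH (9.26 ± 0.038), whose difference did not pass, down through LeGO-1.0/1.6 (8.68 ± 0.042) and siPINC1.0/1.6 +LH (8.49 ± 0.069) to LeGO-DCR (8.16 ± 0.131) and LeGO-GFP (8.13 ± 0.053), which overlapped, with the 3 −LH groups last, between 6.49 and 6.78. Ece1 was highest in the −LH groups (9.67 to 9.89) and LeGO-1.0/1.6 (9.70 ± 0.064), lower in LeGO-GFP (9.43 ± 0.196) and LeGO-DCR (9.35 ± 0.035), and lowest in the 3 siRNA groups with hormones (8.36 to 8.58). The siRNA and LeGO arrays were separate experiments, so neighbours across them were not tested.

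The groups also differed in markers of other cell types, measured on the same arrays. The summed signal of 6 fibroblast markers was 928 to 982 in siNEG −LH, 315 to 366 in siPINC1.0/1.6 −LH, 1633 to 1653 in siPINC −LH and 4959 to 5411 in siNEG +LH. It was 12923 to 15451 in LeGO-GFP against 926 to 993 in LeGO-1.0/1.6. Dcn was the brightest of the 6 (median log2 signal 11.87), so the larger sums rest heavily on it. With hormones in siNEG Dcn rose by 6.98 ± 0.116, while Col1a1 changed by −2.94 ± 0.099. Of these 6 markers, 3 were called for siPINC1.0/1.6 without hormones, where 2.96% of all probes were, and all 3 were lower. For siPINC without hormones 0 were called, in a comparison where 0% of all probes were. For the hormones in siNEG 6 were called (5 higher, against 27.1% of all probes) and for LeGO-1.0/1.6 5 (4 lower, against 30.3%). The sum of 9 basal and myoepithelial markers was 162844 to 166724 in siNEG −LH, 43485 to 54114 in siNEG +LH, 67112 to 71174 in LeGO-GFP and 18165 to 18728 in LeGO-1.0/1.6. Krt5 and Krt14, the brightest of the 9 (median log2 signal 14.46 and 15.33), make up most of that sum. Of the 9, 1 was called higher and 4 lower for the hormones in siNEG (27.1% of all probes). For LeGO-1.0/1.6 against LeGO-GFP 2 were called higher and 6 lower (30.3%). The summed signal of 6 milk protein genes differed as well. It was 278 to 310 in siNEG −LH, 2708 to 3121 in siNEG +LH, 30317 to 32313 in LeGO-GFP and 1632 to 1659 in LeGO-1.0/1.6. Ltf was the brightest of them (median log2 signal 10.62). The part of any of these 3 sets in the endothelin differences was not tested.

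The remaining members were dim, and little can be read from them. Edn2, which encodes a peptide close to endothelin 1, was well above background on all 24 arrays but low, between 5.30 and 6.79. It passed in none of the 14 comparisons. For siPINC1.0/1.6 the control read 5.79 and 6.15 in siNEG −LH against 5.30 and 5.71, and 5.31, 5.68 and 5.86 in siNEG +LH against 6.23, 5.85 and 6.38. The groups with hormones overlapped, and the differences were −0.46 ± 0.241 and 0.54 ± 0.213 (limma adjusted p = 0.448 and 0.305). The hormone difference in siPINC1.0/1.6 was 0.65 ± 0.242 (limma adjusted p = 0.0726).

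Edn3, the ligand that pairs with Ednrb in neural crest development, was well above background on 0 of 24 arrays. Its median was 1.88, with single arrays up to 4.08, and such values have no order.

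Ednrb, the receptor that binds the 3 ligands about equally, has 2 probes. A_55_P2089710 was well above background on 0 arrays (1.86 to 2.79) and A_52_P577662 on 6 (2.00 to 4.68). The brighter probe read 4.04, 3.98 and 4.55 in LeGO-GFP, the first 2 well above background. In LeGO-1.0/1.6 it read 2.43, 2.02 and 2.03, none of them well above background, and in LeGO-DCR 4.01, 2.14 and 2.00. The fitted difference of −2.03 ± 0.514 for LeGO-1.0/1.6 against LeGO-GFP passed (limma adjusted p = 0.0205), and as a bound the signal was at least 1.77-fold lower. The call was lost without LeGO-GFP replicate 3 or LeGO-1.0/1.6 replicate 2 or 3 (limma adjusted p up to 0.0699) and under 75th percentile scaling (0.0735), and normexp gave −0.35.

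With hormones the same probe was called lower in both knockdown groups. It read 4.13 and 4.68 in siPINC1.0/1.6 −LH against 2.03, 3.02 and 2.10 in siPINC1.0/1.6 +LH, at least 1.22-fold lower (limma adjusted p = 0.0151). It read 4.38 and 3.53 in siPINC −LH against 2.22, 2.33 and 2.03 in siPINC +LH (limma adjusted p = 0.0324), where the bound is only 1.01-fold. In siNEG, 4.31 and 3.56 against 3.81, 2.02 and 2.06 overlapped and did not pass (limma adjusted p = 0.113). With a term for the slide the first 2 differences were −0.26 and 0.00, and under normexp they were −0.47 and −0.35. They were also lost without the second siPINC1.0/1.6 −LH array (limma adjusted p = 0.115), and without the first siPINC −LH array or any siPINC +LH array (limma adjusted p up to 0.232).

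Ece2, the second converting enzyme, was well above background on 3 of 24 arrays, all of them lentiviral, and its values ran from 1.88 to 3.99. It passed in no comparison. Taken over all groups, 4 genes were measurable in most groups: Edn1, Edn2, Ednra and Ece1.

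**Figure D3:**
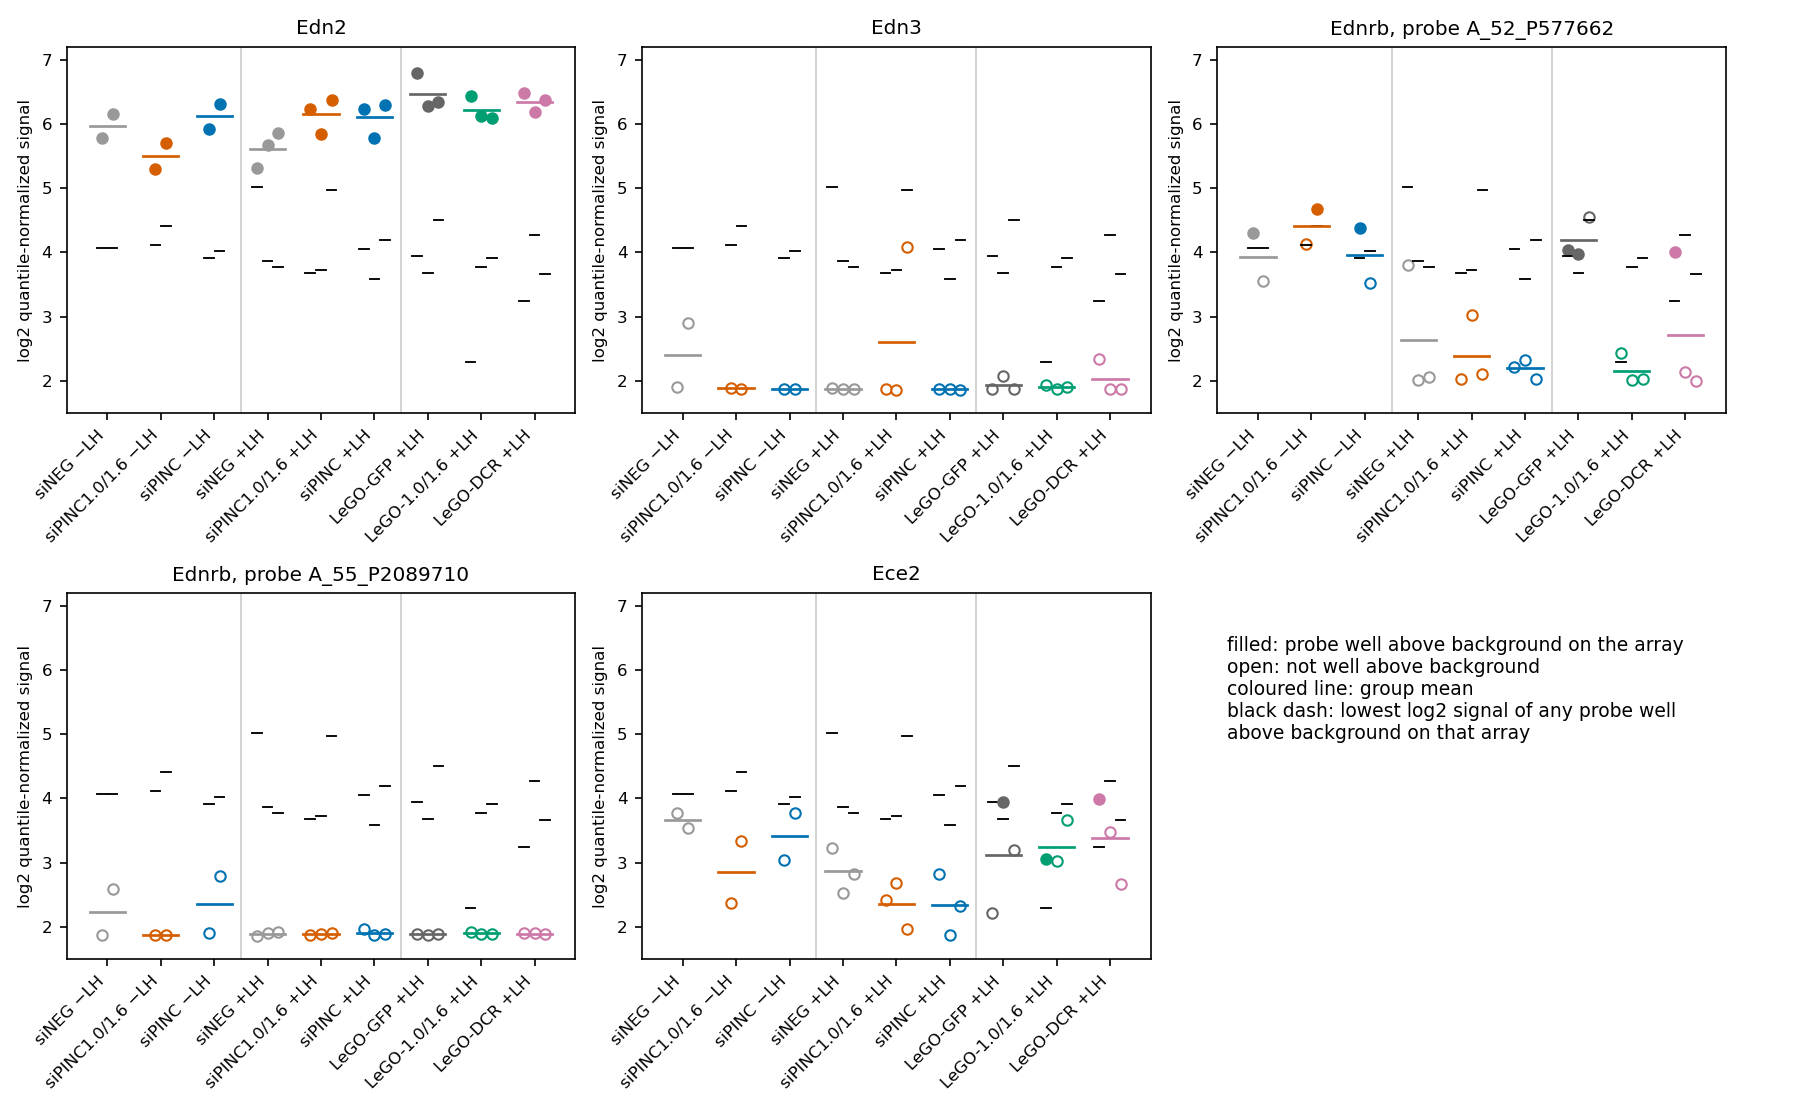
Log2 quantile-normalized signal (vertical axes) of Edn2, Edn3, both Ednrb probes and Ece2 on each array by group (horizontal axes), with a black dash at the lowest signal of any probe well above background on that array. Edn2 lies above the dash on every array, while Edn3 and the dimmer Ednrb probe are open points on every array, between 1.86 and 4.08.

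Genes that act around the ligand and receptor were followed as 8 lists, each gene by its brightest probe. Most list genes were well above background on all 24 arrays, but on any 1 array only 24013 to 35380 of the 55681 probes were. Shares over all probes are therefore a low yardstick for these lists. With hormones in siNEG, where 13.5% of all probes were called higher and 13.6% lower, the lists gave the following counts. Of 9 G protein alpha subunits 5 rose and 2 fell, with Gnaq, which links endothelin receptors to phospholipase C, up by 1.22 ± 0.060 (limma adjusted p = 8.00e-08). Of 11 phospholipase C, calcium and PKC genes 5 rose and 1 fell. The IP3 receptors Itpr2 (2.16 ± 0.082) and Itpr1 (2.13 ± 0.068) and the phospholipase Plcb1 (0.80 ± 0.094) rose. The list medians were 0.23 and 0.54, against 0.01 for all probes.

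Among 10 genes of receptor desensitisation 3 rose and 2 fell with hormones, against the same 13.5% and 13.6% of all probes. Rgs2, which speeds the turning off of Gq proteins, rose by 2.87 ± 0.090 (limma adjusted p = 3.10e-09), and Arrb1, a beta-arrestin, by 2.52 ± 0.155. Of 11 genes of peptide processing and degradation 4 were called higher and 3 lower, with the proprotein convertase Pcsk6 down by 2.28 (−2.28 ± 0.076). One of the higher calls, Mmel1, sets dim values against each other, since the probe was well above background on 0 arrays in both groups. Of 15 Ras-ERK genes 5 rose and 3 fell, Map2k1 by 0.93 ± 0.055 being the largest.

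Of 12 genes that growth-promoting receptors induce, 5 rose and 6 fell with hormones (13.5% and 13.6% of all probes). Ccn2, a matricellular protein gene, rose by 4.90 ± 0.085 (limma adjusted p = 1.15e-10). Myc fell by 3.02 ± 0.108 and Fosl1, an AP-1 subunit, was at least 2.08-fold lower (log2 difference −0.67 under normexp). Of 13 regulators of Edn1 transcription 6 rose and 1 fell, Foxo1 (1.42 ± 0.079), Stat5a (1.25 ± 0.059) and Klf2 (1.22 ± 0.086) most. Of 6 targets of Edn1-Ednra signalling in the embryonic face only Msx1 was called, and it fell (−1.06 ± 0.085).

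For LeGO-1.0/1.6 against LeGO-GFP, 14.5% of all probes were called higher and 15.8% lower. Of the 9 G protein subunits 0 rose and 4 fell, with Gnai1 at −1.95 ± 0.158 and Gnaq at −1.08 ± 0.067 (limma adjusted p = 6.15e-05 and 1.49e-05). Of the 11 phospholipase C, calcium and PKC genes 2 rose and 3 fell, Itpr1 (−2.02 ± 0.057) and Plcb1 (−1.05 ± 0.121) among the latter. Of the desensitisation genes 4 rose and 2 fell: Rgs2 rose by 2.54 ± 0.085 and Arrb2 by 1.02 ± 0.077, and Arrb1 fell by 1.63 ± 0.058.

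Of the 12 induced genes 8 rose and 2 fell with overexpression, where 14.5% of all probes were called higher and 15.8% lower, and the median was 1.49, against −0.01 for all probes. Ptgs2, the inducible cyclooxygenase, rose by 4.92 ± 0.069 (limma adjusted p = 4.08e-08), Fosl1 by 3.95 ± 0.341, and Mmp9, a gelatinase not well above background on any LeGO-GFP array, was at least 4.12-fold higher. Of the 11 processing genes 3 rose and 5 fell. Mme, neprilysin, a cell-surface protease that degrades endothelins among other peptides, fell by 4.03 ± 0.112 (limma adjusted p = 4.24e-07). Under normexp these differences were smaller, at 1.74 for Fosl1, 1.08 for Mmp9, −3.4 for Mme and −1.36 for Gnai1, all called in the same direction.

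Of the 13 Edn1 regulators 5 rose and 6 fell with overexpression (14.5% and 15.8% of all probes), Hif1a up by 1.98 ± 0.094 and Klf2 down (−1.09 ± 0.077). Among the higher calls, Gata2 (1.25 ± 0.269) was dim, well above background on 1 of 3 LeGO-1.0/1.6 arrays and 0 of 3 LeGO-GFP arrays. Of the 15 Ras-ERK genes 3 rose, Src (1.03 ± 0.273) and Egfr (0.70 ± 0.075) among them, and 5 fell. Of the 6 embryonic targets 1 rose and 1 fell. The count for Edn1 regulators dropped from 11 to 7 under 75th percentile scaling and to 6 with the authors' deposited values.

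Knockdown with siPINC1.0/1.6 gave fewer calls among these genes, and over all probes, than the hormones in siNEG or LeGO-1.0/1.6 did. Without hormones 1.52% of all probes were called higher and 1.45% lower, and the lists gave 4 of 12 induced genes (3 higher, 1 lower), 4 of 13 Edn1 regulators (1 higher, 3 lower), 2 of 11 processing genes (1 in each direction), 1 of 11 phospholipase C genes (lower), 1 of 10 desensitisation genes (higher) and none of the other 3 lists. Fosl1 rose by 1.85 ± 0.214 and Ptgs2 by 1.17 ± 0.129 (limma adjusted p = 0.0438 and 0.041), and Stat5a fell by 0.81 ± 0.052 (0.0287). Under normexp the Fosl1 difference was 0.97. All 5 of these counts went to 0 under 75th percentile scaling, the replicate block, the methods' t-test and the authors' deposited values.

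With hormones 2.09% of all probes were called higher and 1.75% lower for siPINC1.0/1.6 against siNEG. Of the 12 induced genes 5 rose and 0 fell, with a median of 0.40: Myc (0.98 ± 0.111), Fos (0.64 ± 0.049) and Ptgs2 (0.62 ± 0.078) most. Of the 13 regulators Klf4 rose by 0.35 ± 0.067 and Stat5a and Stat5b fell by 0.40 ± 0.058 and 0.37 ± 0.049 (limma adjusted p = 0.0127 and 0.00964). The calcium list held 1 call, Itpr2 at −0.50 ± 0.073, the processing list Pcsk6 (0.61 ± 0.071), the G proteins Gnai1 (0.53 ± 0.095) and desensitisation Grk5 (0.33 ± 0.065). The Ras-ERK and embryonic lists held none.

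**Figure D4:**
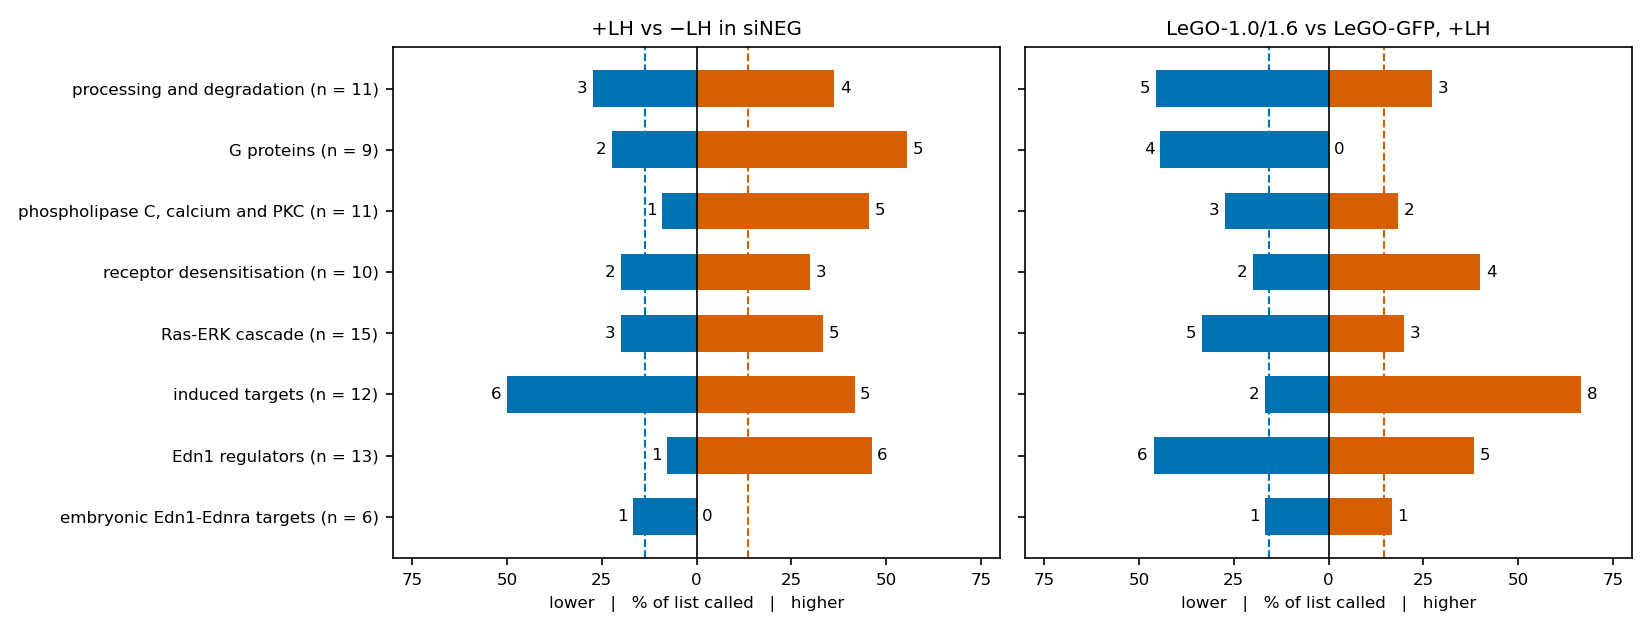
Share of each pathway list called at an adjusted p under 0.05 (horizontal axes, percent of the list, lower to the left and higher to the right, with the number of genes at each bar) for the hormones in siNEG and for LeGO-1.0/1.6 against LeGO-GFP. Dashed lines are the shares of all probes, dim ones included (13.5% and 14.5% higher, 13.6% and 15.8% lower), and the longest bar is the 8 of 12 induced genes that rose with LeGO-1.0/1.6.

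Over the 9 group means, centred on their own mean, the genes most like Ednra among 13904 compared were Rnf43 (root mean square difference 0.217 on the log2 scale), 1700019D03Rik (0.317), Itpr2 (0.322), Pik3ip1 (0.354) and Dixdc1 (0.367), where the median gene was at 1.13. Itpr2 is also in the calcium list above. The closest to Edn1 were Tnn (0.677), Cage1 (0.679), Nfe2l3 (0.682), Slc28a3 (0.683) and Rhou (0.708), with a median of 1.84. Ece1 was followed by Marchf10 (0.164), Scarb1 (0.168), Krtap4-8 (0.172), Fam171a2 (0.173) and Anxa8 (0.174), with a median of 0.69. These are descriptions over 9 groups, with no test.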

How the data were processed

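Total RNA of HC11 cells was hybridised to 24 1-colour Agilent arrays. The authors deposited scanner files, whose processed intensity values were background-subtracted by Feature Extraction 11.0.1.1 per the file headers, and a table of log2 values that the authors made from the same arrays (their methods name quantile normalization). Here control spots were left out, log2 of the deposited intensity was quantile-normalized over the 24 arrays, and the spots of each probe that carried no outlier mark were averaged. A probe counted as well above background on an array unless most of those spots were not. Differences were fitted in R 4.3.3 with limma 3.58.1 (lmFit, eBayes) over 55681 probes, in separate fits for the −LH siRNA, +LH siRNA, lentiviral and all siRNA arrays, and adjusted by Benjamini-Hochberg. The paper calls the arrays of a group biological duplicates (−LH) or triplicates (+LH) and does not say how they were grown apart. The p-values measure only the spread between these arrays, and the number of arrays limits the precision. In data simulated with 200 changed probes the +LH siRNA fit called 47.1% of changes of 1 and 68.7% of changes of 2 on the log2 scale, and the −LH fit 28% and 56%.

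Where every array of 1 group lacked a signal well above background, the fold is called a bound and given as an at least value. It was taken against the lowest signal of any probe well above background on those arrays, or the probe's own signal if higher. Such bounds are nominal, because a probe not well above background can read above that lowest signal. Ednrb read 4.55 in LeGO-GFP replicate 3, not well above background, where that signal was 4.51. The bounds apply to the main processing only, and another background treatment could give a smaller difference. The members and lists were chosen with earlier results of these data known. Each list gene is named by its brightest probe, and the up to 3 called genes with the largest differences per list were eligible to be named. Alternatives were 75th percentile scaling, quantile normalization within each fit, normexp, bright probes only, the methods' t-test, a trended and robust prior, 1 fit of 24 arrays with or without the slide, a replicate block, the authors' deposited log2 values, the mean of a gene's probes, and leaving out each array. Slide 1 held all −LH arrays and replicate 1 of siNEG +LH and of LeGO-GFP, slide 2 the other +LH siRNA arrays and slide 3 the other lentiviral arrays.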

Additional observations from a re-analysis of the deposited data

Results flagged for a closer look

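The response to hormones differed between siRNA groups for 3 of the tested terms, each a difference between the hormone effects of 2 groups in limma. For Edn1 the term was −2.88 ± 0.114 in siPINC1.0/1.6 against siNEG (limma adjusted p = 3.24e-06) and −0.74 ± 0.114 in siPINC (limma adjusted p = 0.0285). For Ednra it was −0.88 ± 0.182 in siPINC1.0/1.6 (limma adjusted p = 0.0278). Both Edn1 terms use the siNEG −LH level, which was not well above background on either array, so their sizes are not exact: under normexp they were −1.10 and 0.04, and the second was then no call (limma adjusted p = 0.98).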

How the results depend on the processing

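Each of the 14 comparisons was recomputed under up to 11 alternatives and without each array. Of 1022 values of the members under the alternatives, 980 kept their direction and side of the threshold, 26 lost a call, 14 gained one and 2 reversed: the Edn1 interaction for siPINC under normexp (0.04) and the Ednrb hormone difference in siPINC with the slide term (0.00). Of 1029 values without 1 array, 972 kept both, 51 lost a call, 6 gained one and 0 reversed. The cause was not tested.

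The number of the 7 genes called moved by over 1.5 times as follows, and changes within that were of 1 gene, in the LeGO-1.0/1.6 and hormone comparisons. Under 75th percentile scaling it was 0 for siPINC against siNEG +LH, 1 for siPINC1.0/1.6 against siPINC +LH, 1 for the siPINC1.0/1.6 interaction and 0 for the siPINC interaction. Under normexp it was 1 for siPINC1.0/1.6 against siPINC −LH and 0 for the siPINC interaction. With bright probes only it was 1 for siPINC1.0/1.6 against siPINC −LH and 2 for siPINC1.0/1.6 against siNEG +LH. With the methods' t-test it was 0 for siPINC1.0/1.6 against siNEG −LH, 0 for siPINC against siNEG +LH and 0 for siPINC1.0/1.6 against siPINC +LH. This test could not be run for the interactions. With the trended and robust prior it was 1 for siPINC1.0/1.6 against siPINC −LH. With 1 fit of 24 arrays, with or without the slide, it was 1 for siPINC against siNEG −LH and 1 for siPINC1.0/1.6 against siPINC −LH. With the authors' deposited log2 values it was 0 for siPINC against siNEG +LH, 1 for siPINC1.0/1.6 against siPINC +LH and 0 for the siPINC interaction.

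Replicate numbers are shared between groups, but deviations of same-numbered arrays did not all correlate above 0.1 (−LH 0.06 to 0.14, +LH −0.46 to 0.15, lentiviral −0.03 to 0.25), so the numbers were not taken as pairs. With the replicate block the count was 0 for siPINC1.0/1.6 against siNEG −LH, 0 for siPINC against siNEG +LH, 0 for siPINC1.0/1.6 against siPINC +LH, 1 for the siPINC1.0/1.6 interaction and 0 for the siPINC interaction.

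Leaving out 1 array gave 0 to 1 for siPINC1.0/1.6 against siNEG −LH, 0 to 0 for siPINC against siNEG +LH, 1 to 1 for siPINC1.0/1.6 against siPINC +LH, 2 to 4 for LeGO-1.0/1.6 against LeGO-GFP, 2 to 3 against LeGO-DCR, 3 to 4 for the hormones in siNEG, 3 to 5 in siPINC1.0/1.6 and in siPINC, 1 to 2 for the siPINC1.0/1.6 interaction and 0 to 1 for the siPINC interaction. Counts for the pathway lists moved by over 1.5 times in 88 of 352 cases.

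75th percentile scaling moved the median of all probes from 0.01 to 0.18 for the hormones in siNEG and from 0.01 to 0.23 in siPINC. Of called probes, the share higher moved from 81% to 91.7% for siPINC against siNEG +LH and from 72.5% to 57.1% for the siPINC interaction under it, from 54.4% to 65.8% for siPINC1.0/1.6 against siNEG +LH with the deposited log2 values, and from 20% to 46.8% for siPINC1.0/1.6 against siPINC −LH under normexp. Signal near background limits Edn1 in siNEG −LH, Edn3, Ednrb and Ece2.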
